A study of Mus musculus with 2 samples.

Results

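The amino acid transporters described here are the 58 genes, of 34745 listed, whose symbol places them in the solute carrier families Slc1a, Slc6a, Slc7a, Slc36a, Slc38a or Slc43a. They were taken by symbol alone, by a rule that uses no measured value. The members were, however, chosen with earlier results of these data known. RNA-seq had been run on liver from male mice, either heterozygous knockouts of miR-182-5p (KO) or wild-type controls (WT). All mice had undergone 2/3 partial hepatectomy (PH) at an age of 8 to 10 weeks, and the paper places the RNA-seq at day 3 after surgery. Each genotype was represented by 1 library, the number of mice behind a library and the strain of the WT mice were not given in the sources used here, and the knockout was not restricted to any cell type. The targeted gene is not among the listed genes, which leaves the genotype labels unchecked.

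Amino acid transporters move amino acids across the plasma membrane by cotransport with sodium or protons or by exchange of one amino acid for another. Some exchangers of the Slc7a family reach the cell surface only when bound to a heavy chain, *Slc3a2* or *Slc3a1*. In the liver these proteins bring in alanine, glutamine and arginine for gluconeogenesis, urea synthesis and protein synthesis, and system N carriers let hepatocytes take up or release glutamine. The name "amino acid transporters of the plasma membrane" does not hold for every member. By textbook function, 45 of the 58 act at the plasma membrane, and the symbol rule also takes in transporters of monoamines (*Slc6a2*, *Slc6a3*, *Slc6a4*), of creatine (*Slc6a8*) and of nucleobases (*Slc43a3*), lysosomal members such as *Slc38a9*, and several orphans. In the annotation of the deposited table, 51 members (87.9%) carry the term amino acid transport, against 0.357% of all listed genes.

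Because the mice differ in miR-182-5p, its sequence is shown first, followed by the places in the 3′ UTRs of members that hold the longer match to it. The mature microRNA (RefSeq, GRCm38.p6) is encoded on the minus strand at chr6:30165962-30165986. Its seed, bases 2 to 8, is in capitals, and in the UTR stretches the capitals mark TTGCCAAA, which is 7 bases that can pair with the seed followed by an A.
mmu-miR-182-5p: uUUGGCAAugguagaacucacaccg
Slc1a2, chr2:102781707-102781732, plus strand: tgctgtgtctTTGCCAAAtaatgctt
Slc43a2, chr11:75572832-75572857, plus strand: attctgcctcTTGCCAAAgcagaggg
Slc6a13, chr6:121337716-121337733, plus strand: tcacaactgcTTGCCAAA
The UTR stretches are from GRCm38 with GENCODE M21 transcripts. *Slc6a13* was annotated with only 317 bases of UTR and its match stands at the very end of it. Each match is a description of letters and not evidence of a site that is used.

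Total counts were 13247497 (KO) and 13163348 (WT). Mitochondrially encoded mRNAs, 13 in all, made up 51.67% of the KO total and 30.97% of the WT total, so that fewer counts remained for nuclear genes in KO. Libraries were therefore scaled by TMM (trimmed mean of M-values), which sets the typical gene at no change, and the log2 fold change is KO over WT on that scale. Each value in brackets after a log2 fold change is its exact 95% interval, which covers counting error only. A gene was called when its log2 fold change was at least 1 in size and its binomial test, adjusted over the 13561 genes that reached 10 counts over both libraries, gave an adjusted p of at most 0.05. With 1 library per genotype no difference has a replicate check, and the test speaks of these libraries, not of the genotypes. Scaled by total counts instead, the median of all genes moved from 0.00 to −0.60, so a log2 fold change between 0 and about 0.60 is negative on that scale. By total counts 25% of all genes tested were called lower, against 8.32% by TMM.

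Of the 58 members, 22 had no count in either library, 5 had between 1 and 9 counts over both, and 31 reached the minimum of 10. The 22 members at 0 include *Slc1a1* and *Slc1a3*, which take up glutamate, *Slc6a5* for glycine and *Slc6a11* for GABA, the kidney cystine exchanger *Slc7a9*, and *Slc38a5*, the system N relative of *Slc38a3*. A count of 0 allows a level of up to 0.226 counts per 1000000 library counts (CPM) in KO and 0.228 CPM in WT. The 5 members with few counts were *Slc1a6*, *Slc6a7*, *Slc6a19*, *Slc7a3* and *Slc36a2*, with at most 5 counts in the KO and 6 in the WT library. *Slc6a19*, the main neutral amino acid carrier of gut and kidney, was among them with 0 and 3 counts.

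Of the 31 members tested, 3 were called higher in the KO library, against a background of 7.97% of all genes tested, and 2 were called lower, against 8.32%. The 5 together were 16.1% of the members tested, and 16.3% of all genes tested were called, so the share of transporters called was close to that of all genes. The members called higher were *Slc38a3*, *Slc36a4* and *Slc7a11*, and those called lower were *Slc1a4* and *Slc38a1*. All 5 calls were lost when edgeR's exact test was given 0.4 as the coefficient of variation between animals, which cannot be measured here. Of the remaining 26, none of which was called, 17 lay within 0.5 of 0 on the log2 scale. The median of the 31 was 0.26, beside 0.00 for all genes tested, with 21 above 0 and 10 below. In raw counts, before scaling, the KO library had the higher value for 10 members and the lower value for 21.

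**Figure D1:**
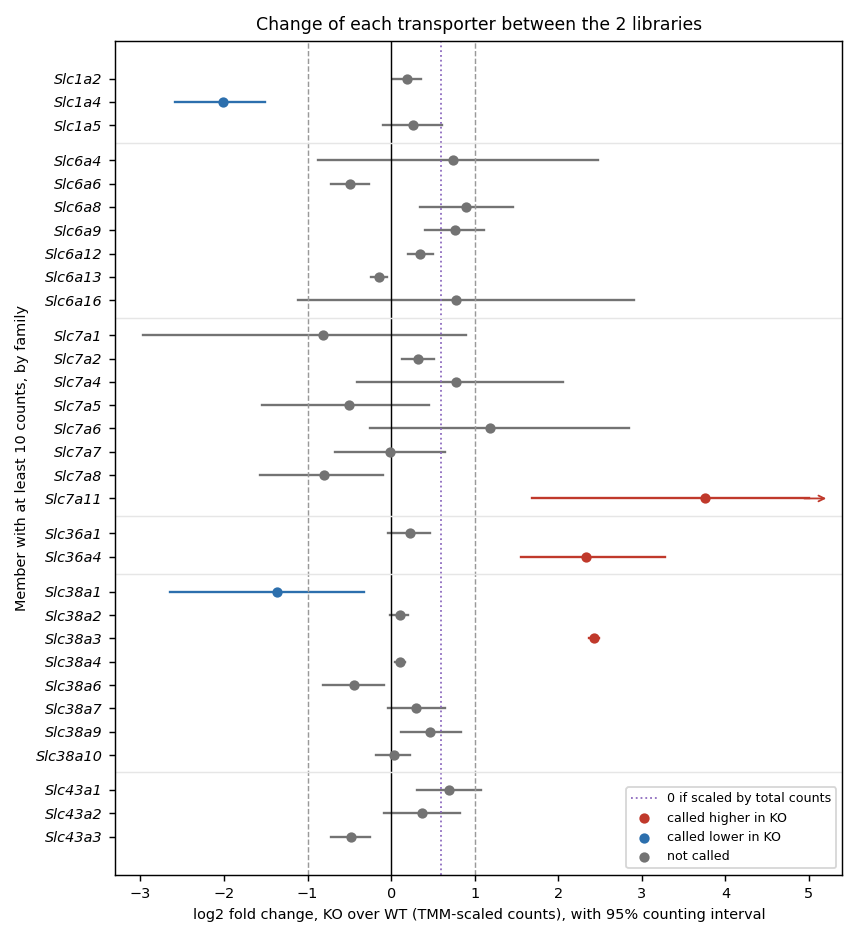
The horizontal axis gives the log2 fold change of TMM-scaled counts, KO over WT, and the vertical axis the 31 members tested, by family. Points are values from 1 library per genotype, lines are 95% counting intervals (an arrow marks an interval that leaves the axis), dashed lines mark a 2-fold change and the dotted line shows where 0 would lie after scaling by total counts; of the 4 members to the right of 1, 3 are called and *Slc7a6*, whose interval reaches below 0, is not, and 2 called members lie to the left of −1.

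**Figure D2:**
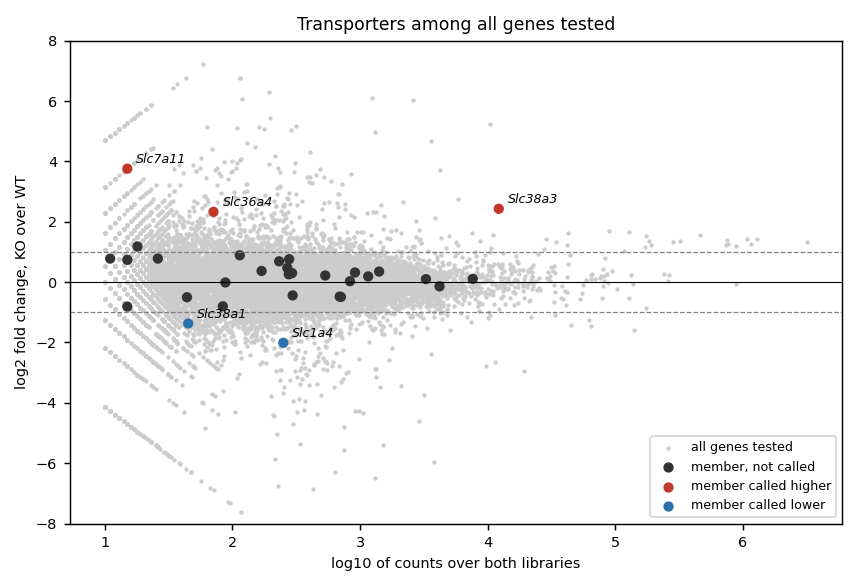
Each point is a gene, with the log10 of its counts over both libraries on the horizontal axis and its log2 fold change, KO over WT, on the vertical axis. Members are drawn large over all 13561 genes tested (3 genes lie outside the axis); few genes of like count lie as high as *Slc38a3*, whereas *Slc7a11* and *Slc38a1* lie where low counts spread widely.

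The member with the most counts that was called is *Slc38a3* (SNAT3, ENSMUSG00000010064, chr9:107650634-107669530), the system N carrier that couples glutamine, histidine and asparagine to sodium in exchange for protons. It had 9537 counts in KO and 2666 in WT. The KO library was thus the higher, with a log2 fold change of 2.43 (2.37 to 2.49), a 5.39-fold difference. Of the 2090 genes that reached 1000 counts over both libraries, 10 (0.478%) had a value at least as high, *Slc38a3* included. On the scale of total counts, which lowers every gene, it was still higher, at 1.83.

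The system A carriers, which take up alanine, glutamine and other small neutral amino acids with sodium, gave no such difference where they were abundant. *Slc38a4* (SNAT4, chr15:96994823-97055956), the system A carrier typical of hepatocytes, had 3181 and 4453 counts in the KO and WT libraries and a log2 fold change of 0.11 (0.04 to 0.17). *Slc38a2* (SNAT2, chr15:96687394-96699698), the widely expressed form that cells induce when amino acids are scarce, had 1361 and 1921 counts and a log2 fold change of 0.10 (−0.01 to 0.20). Their ratio to each other, which no scaling between libraries can move, was 2.53 in KO and 2.51 in WT in FPKM (fragments per kilobase of gene length, scaled to 1000000 counts).

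*Slc38a1* (SNAT1, chr15:96571418-96642913), the system A form abundant in brain, was scarce. It had 9 counts in KO and 36 in WT and was called lower, with a log2 fold change of −1.37 (−2.65 to −0.33). Of the 11837 genes with at least 30 counts, 493 (4.16%) had a value as low or lower. The call was lost when the test allowed for a biological coefficient of variation of 0.1.

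How the levels of the main carriers were ordered depended on the gene length used. The FPKM of the authors imply a length of 11511 bases for *Slc38a3*, 3.65 times its longest coding transcript of 3151 bases, the most of any member tested (median 1.74, from 0.836). Levels between genes are therefore also given as CPM per kilobase of the longest coding transcript. These levels are scaled by total counts and not by TMM, so they serve to order genes within a library. On that scale *Slc38a3* stood first in the KO library at 228, followed by *Slc38a4* at 61.1, *Slc6a13* at 53.1, *Slc38a2* at 22 and *Slc6a12* at 18.4. In the WT library *Slc6a13* at 89.1 and *Slc38a4* at 86 were first, *Slc38a3* came next at 64.3, and *Slc38a2* and *Slc6a12* followed at 31.3 and 22.

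By the authors' FPKM, the same 5 genes led. *Slc38a3* was first in the KO library at 62.5 and 4th in the WT library at 17.6, and *Slc38a4* was second at 56.1 and first at 79.1. On either scale *Slc38a3* was above *Slc38a4* in the KO library and below it in the WT library. The ratio was 1.11 in FPKM and 3.73 per transcript length in the KO library, while in the WT library *Slc38a4* was 4.49 times and 1.34 times *Slc38a3*. Without a second library per genotype, the spread that would separate neighbours such as *Slc38a4* and *Slc6a13* is not known.

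**Figure D3:**
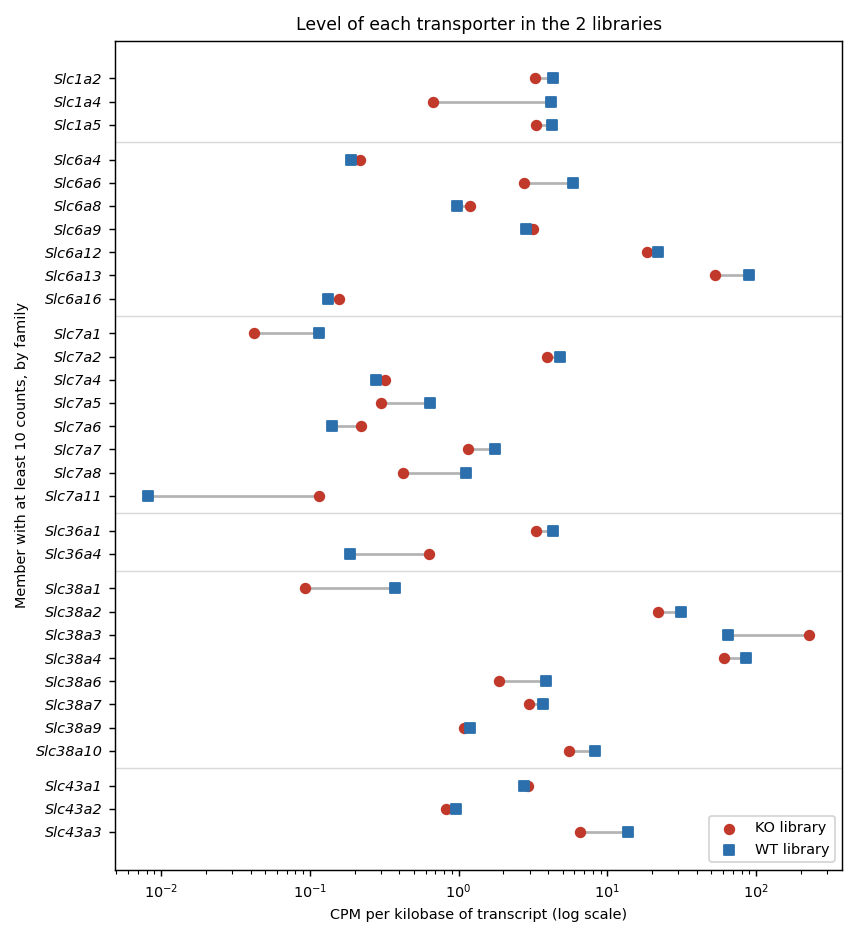
The horizontal axis gives CPM per kilobase of the longest coding transcript, on a log scale, and the vertical axis the 31 members tested, by family. Circles are the KO library and squares the WT library, 1 value each. Levels are scaled by total counts and not by TMM, and on that scale the median gene is at −0.60. *Slc38a3* moves from 64.3 in WT to 228 in KO, while *Slc1a4* moves from 4.16 to 0.673.

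Of the 7 remaining Slc38a members, 3 had no counts and the other 4 were tested, none of them called. *Slc38a10*, an intracellular member, had 336 and 497 counts in the KO and WT libraries, with a log2 fold change of 0.03 (−0.18 to 0.23). The lysosomal glutamine and asparagine exporter *Slc38a7* had 132 and 161 counts and a log2 fold change of 0.30 (−0.04 to 0.65). *Slc38a9*, which senses arginine at the lysosome for mTORC1, had 129 and 140 counts and a log2 fold change of 0.47 (0.12 to 0.83). The orphan *Slc38a6* had 97 and 199 counts and a log2 fold change of −0.44 (−0.81 to −0.09). By total counts *Slc38a6* passed the criteria for lower, at −1.04, as did 25% of all genes. Its value is uncertain, since 43.6% of the 51-base words in its longest transcript also occur in transcripts of other genes. The gene that shared the most words was *D10Wsu102e*, which had 100 and 110 counts.

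Of the Slc1a family, 3 of 7 members were tested and 1 was called. *Slc1a4* (ASCT1, ENSMUSG00000020142, chr11:20302180-20332713), which exchanges serine, alanine, cysteine and threonine, had 35 counts in KO and 215 in WT. It was the lower in KO, with a log2 fold change of −2.01 (−2.59 to −1.51), a 4.04-fold difference, and 116 of the 9322 genes with at least 100 counts (1.24%) had a value as low or lower. Its close relative *Slc1a5* (ASCT2), which exchanges glutamine, had 122 and 154 counts and was not called, at 0.26 (−0.10 to 0.61). In FPKM, *Slc1a4* was 0.284 times *Slc1a5* in KO and 1.38 times in WT, a difference of −2.28 in the log2 ratio.

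*Slc1a2* (GLT-1), the glutamate carrier of the hepatocytes around the central vein, had 499 and 658 counts and a log2 fold change of 0.19 (0.02 to 0.36). Among all members of the class of glutamate and aspartate carriers it held 99.4% of counts in KO and 99.1% in WT. The counts left for the other 5 members of the class were those of *Slc1a6*, with 3 in KO and 6 in WT.

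The Slc36a family includes carriers that move small amino acids together with protons. *Slc36a4* (PAT4, ENSMUSG00000043885, chr9:15709738-15742384) had 55 counts in KO and 16 in WT, with a log2 fold change of 2.33 (1.55 to 3.28), and was called higher. Of the 10916 genes with at least 50 counts, 120 (1.1%) had a value at least as high. The lysosomal *Slc36a1* (PAT1, chr11:55204350-55236330) had 232 and 301 counts and a log2 fold change of 0.22 (−0.04 to 0.47). *Slc36a4* remained the scarcer of this pair, at 0.275 times *Slc36a1* in FPKM in the KO library and 0.0617 times in the WT library.

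In the Slc7a family 8 of 15 members were tested and 1 was called. *Slc7a11* (xCT, ENSMUSG00000027737, chr3:49892526-50443614), the exchanger that brings in cystine for glutathione synthesis and releases glutamate, had 14 counts in KO and 1 in WT. Its log2 fold change was 3.76 with a prior count of 0.5 added, and with a prior count of 5 it was 1.95. The ratio of the scaled counts themselves, which rests on 1 count in WT, was 4.40 on the log2 scale (1.68 to 9.80). By FPKM with a pseudocount of 0.1 the value was 0.67. Of all 13561 genes tested, 107 (0.789%) had a value at least as high. Both libraries were near the lower end of detection for this gene, with 0.115 and 0.00824 CPM per kilobase of transcript.

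*Slc7a2* (CAT2), which takes up arginine, lysine and ornithine, was the main Slc7a member of this tissue, with 413 and 499 counts and a log2 fold change of 0.32 (0.13 to 0.51). It held 77.5% of the family's counts in KO and 73.7% in WT. The other 6 members tested had from 4 to 61 counts in a library and their log2 fold changes ran from −0.81 for *Slc7a1* to 1.18 for *Slc7a6*, none of them called. Within that range, *Slc7a5* (LAT1), the leucine exchanger of growing cells, had 14 and 30 counts and a log2 fold change of −0.50 (−1.54 to 0.45). *Slc7a8* (LAT2) had 23 and 61 counts and a log2 fold change of −0.80 (−1.57 to −0.10). By total counts both passed the criteria for lower, *Slc7a5* at −1.08 and *Slc7a8* at −1.40, beside 25% of all genes. On either scale the intervals of these members were more than 1 wide in log2. *Slc7a7* overlaps *Oxa1l*, on the opposite strand, by 232 bases. *Oxa1l* had 382 and 521 counts against 35 and 53 for *Slc7a7*, and whether the counting used strand is not given in the sources used here.

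In the Slc6a family, which moves its substrates with sodium and chloride, 7 of 18 members were tested and none was called. *Slc6a13* (GAT2, chr6:121300227-121337733), which takes up GABA and taurine, was the main member, with 1572 counts in KO and 2620 in WT. Its log2 fold change was −0.14 (−0.24 to −0.05). *Slc6a12* (BGT1), the betaine and GABA carrier whose gene begins 5.34 kb beyond the end of *Slc6a13*, had 646 and 764 counts and a log2 fold change of 0.35 (0.20 to 0.50). The ratio of *Slc6a13* to *Slc6a12* in FPKM was 3.21 in KO and 4.52 in WT.

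*Slc6a6* (TauT), the taurine carrier, had 227 and 480 counts and a log2 fold change of −0.49 (−0.72 to −0.26). *Slc6a6* was not called on the TMM scale and passed both criteria when scaled by total counts, at −1.09. On that scale 25% of all genes were called lower. The glycine carrier *Slc6a9* (GlyT1) had 147 and 131 counts and a log2 fold change of 0.76 (0.41 to 1.11). *Slc6a9* overlaps *Ccdc24*, with 11 and 0 counts, and *B4galt2*, with 0 and 16 counts, both on the opposite strand. The creatine carrier *Slc6a8* had 63 and 51 counts and a log2 fold change of 0.89 (0.34 to 1.46). Both had the higher value in KO in raw counts as well as after scaling. The serotonin carrier *Slc6a4* and the orphan *Slc6a16* had 5 to 8 counts in each library.

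The Slc43a family, which lets large neutral amino acids pass without sodium, had all 3 members tested and none called. *Slc43a1* (LAT3) had 120 and 112 counts in the KO and WT libraries and a log2 fold change of 0.69 (0.31 to 1.08). *Slc43a2* (LAT4) had 78 and 91 counts and a log2 fold change of 0.37 (−0.09 to 0.82). *Slc43a3*, which carries purine nucleobases and no amino acids, had 223 and 469 counts and a log2 fold change of −0.48 (−0.72 to −0.25). By total counts *Slc43a3* passed the criteria for lower, at −1.08, as did 25% of all genes.

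Summed by family, the Slc38a genes had the largest ratio between the libraries. Their counts were 14782 in KO and 10073 in WT, a log2 ratio of 1.15 (1.11 to 1.18). *Slc38a3* made up this difference, since without it the family had 5245 and 7407 counts and a log2 ratio of 0.09 (0.04 to 0.15). The other families had log2 ratios of −0.06 (−0.20 to 0.09) for Slc1a, −0.01 (−0.08 to 0.06) for Slc6a, 0.25 (0.08 to 0.41) for Slc7a, 0.44 (0.20 to 0.67) for Slc36a and −0.08 (−0.26 to 0.10) for Slc43a. Scaled by total counts, Slc38a was at 0.54 and the other 5 families between −0.68 and −0.16. These sums weigh genes by their counts. Summed FPKM, which divides by gene length and is scaled by total counts, gave 0.10 for Slc38a. By counts, the most abundant member was *Slc6a13* for Slc6a, *Slc1a2* for Slc1a and *Slc36a1* for Slc36a. The sums did not simply follow these members. Slc1a was at −0.06 although *Slc1a2* was at 0.19, Slc36a at 0.44 although *Slc36a1* was at 0.22, and Slc6a at −0.01 although *Slc6a13* was at −0.14.

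All members together had 19356 counts in KO and 16838 in WT, a log2 ratio of 0.79 (0.76 to 0.82), or 0.06 (0.03 to 0.10) without *Slc38a3*. *Slc38a3* took 49.3% of the transporter counts in the KO library (exact Clopper-Pearson 48.6% to 50%) and 15.8% in the WT library (15.3% to 16.4%). The shares of the next genes were accordingly smaller in the KO library, 16.4% against 26.4% for *Slc38a4*, 8.12% against 15.6% for *Slc6a13* and 7.03% against 11.4% for *Slc38a2*. These shares are not affected by the scaling between libraries. They are shares of counts with no correction for gene length, so a gene with longer transcripts weighs more in them.

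**Figure D4:**
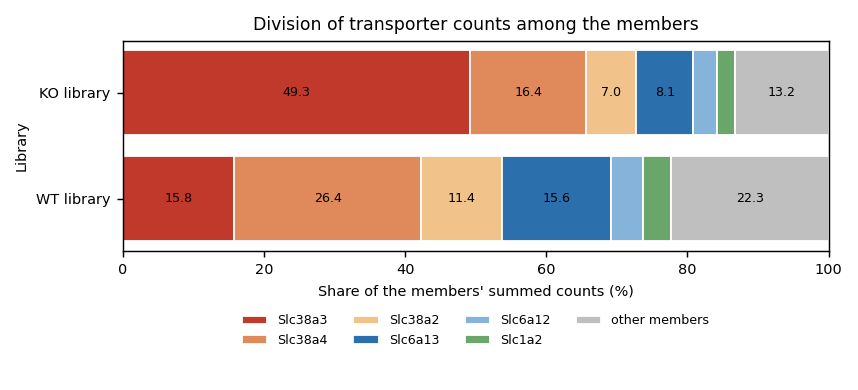
Each bar divides the counts of all members in 1 library, in percent, among the 6 members with the most counts and the rest. Counts are not corrected for gene length. *Slc38a3* takes 49.3% of the KO bar and 15.8% of the WT bar, and the other 5 named members have the same order by size in both bars.

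Grouped by substrate, the class of small neutral amino acids and glutamine held 10 of the 31 members tested and 4 of the 5 called, of which 2 were higher (*Slc38a3*, *Slc36a4*) and 2 lower (*Slc1a4*, *Slc38a1*). The median of that class was 0.24. Of all genes tested 16.3% were called, and with so few members to a class nothing was read from the difference between classes. None of the 4 tested members of the cationic class was called, with a median of 0.16, nor any of the 4 tested large neutral carriers, with a median of −0.06, nor any of the 4 tested carriers of GABA, taurine, betaine and creatine, with a median of 0.10. The fifth called member, *Slc7a11*, was the only tested cystine carrier. By depth, 1 of 6 members that reached 1000 counts over both libraries was called, beside 7.94% of all genes of that depth. Of members with fewer but at least 100 counts, 1 of 14 was called, beside 11.7% of all genes, and of those with fewer than 100, 3 of 11, beside 28.2%.

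Heavy chains and other carriers of amino acids or peptides are given for comparison. Of 13 such genes, 9 were tested, none was called higher and 1 was called lower, near the background of 8.32%, with a median of −0.05. The heavy chain *Slc3a2*, which *Slc7a5*, *Slc7a8* and *Slc7a11* need at the membrane, had 276 and 430 counts and a log2 fold change of −0.05 (−0.27 to 0.17). *Slc3a1*, the heavy chain of *Slc7a9*, had 344 and 401 counts and a log2 fold change of 0.37 (0.16 to 0.58), although *Slc7a9* itself had none. The gene called lower was the peptide carrier *Slc15a2*, with 29 and 99 counts and a log2 fold change of −1.17 (−1.83 to −0.57).

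Of 21 genes of amino acid sensing at the lysosome, 20 were tested, none was called higher and 2 were called lower, with a median of −0.05. *Flcn*, the folliculin that acts on the Rag GTPases, had 112 and 613 counts and a log2 fold change of −1.86 (−2.16 to −1.57). *Lamtor3*, a subunit of the Ragulator scaffold, had 16 and 154 counts and a log2 fold change of −2.64 (−3.52 to −1.93). The share called lower was 10%, near the 8.32% of all genes. The other 4 Ragulator subunits were not called, but *Lamtor1* was just short of the 2-fold limit, with 144 and 433 counts and a log2 fold change of −0.99 (−1.28 to −0.72), while *Lamtor2*, *Lamtor4* and *Lamtor5* lay between −0.16 and 0.05. *Mtor* was at −0.09 (−0.29 to 0.10) and *Rptor* at −0.04 (−0.35 to 0.26).

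In whole liver, fewer cells of a type and less RNA per cell cannot be told apart, so the markers of the cell types are given beside the transporters. The 5 hepatocyte markers, *Alb* among them, summed to 5.11e+04 TMM-scaled CPM in KO and 5.01e+04 in WT, a log2 ratio of 0.03, and none was called. The 6 markers of hepatocytes around the central vein had a log2 ratio of summed counts of 0.00 and no call, with 3 above 0 and 3 below. They ran from −0.94 (−1.35 to −0.56) for *Rhbg*, an ammonium channel, to 0.12 (0.09 to 0.16) for *Cyp2e1*, which gave 12292 of the 24081 KO counts of this sum, and *Glul* was at 0.07 (0.01 to 0.12). The 6 markers of hepatocytes around the portal vein were at 0.27, also with no call. Their median was 0.10, with 4 above 0 and 2 below. They ran from −0.74 (−0.82 to −0.66) for *Hsd17b13* to 0.49 (0.45 to 0.52) for *Pck1*, which gave 15078 of the 26589 KO counts of this sum.

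The markers of other cells are also given on the TMM scale. Stellate cells had a log2 ratio of summed counts of −0.59 (48.8 and 73.5 CPM in the KO and WT libraries). Of their 6 markers 1 was called lower, *Col1a1*, with 102 and 312 counts, beside 8.32% of all genes. In direction, 5 were below 0 and 1 above. Macrophages had a ratio of −0.34 (104 and 132 CPM) and endothelial cells of −0.30 (64.9 and 80.1 CPM), each with 1 of 6 called lower. These were *Adgre1*, with 12 and 41 counts, and *Lyve1*, with 4 and 45. All 6 macrophage markers were below 0, from −1.15 to −0.17. Of the endothelial markers, 5 were below 0 and 1 above. Cholangiocyte markers were at 0.39 (164 and 125 CPM), with 2 of 5 tested called higher and *Cftr* at 0 in the WT library. The 2 called were *Krt19*, with 26 and 7 counts, and *Krt7*, with 15 and 6, beside 7.97% of all genes called higher. *Spp1*, at 0.40 (0.30 to 0.49), gave 1638 of the 1761 KO counts of this sum. Of the 5 tested, 4 were above 0 and 1, *Sox9*, was below, at −0.31 (−0.75 to 0.12). Neutrophil markers were at 0.17 (36.7 and 32.7 CPM), with none of 5 tested called and *Ly6g* at 0 in both. The 5 tested ran from 0.00 to 0.73. Lymphocyte markers were at −0.04 (2.05 and 2.1 CPM), with 2 of 6 tested and 1 called higher, *Cd79a*, with 12 and 4 counts. *Cd3e* and *Cd3g* were at 0 in the KO library. Erythroid markers had a ratio of 0.29 (73.2 and 60 CPM) but a median of −0.56 over the 3 tested. *Alas2*, with 535 of the 787 KO counts, was called higher at 1.22, *Hbb-bs* was called lower at −1.05, *Hba-a1* was at −0.56 (−0.82 to −0.31), and *Slc4a1* had 0 counts in KO and 7 in WT. The part of these cell types in the values of scarce members such as *Slc1a4*, *Slc7a11* and *Slc38a1* was not tested.

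For the microRNA itself, a 3′ UTR was annotated for all 31 members tested. The 7-base match to the seed, TTGCCAA, was found in 5 of them (16.1%), against 12% of the 12497 tested genes with a UTR, and the 8-base match in 3 (9.68%), against 4.99%. The UTRs of the members were the longer, with a median of 1890 bases against 1130. The 5 members were *Slc1a2*, *Slc43a2* and *Slc6a13*, whose 8-base matches are printed above, and *Slc6a8* and *Slc7a2*. None of them was called, and their median log2 fold change was 0.32, against 0.24 for the members without a match. For all genes, the medians were −0.02 with and −0.01 without the match. None of the 5 called members held either match in the UTR searched, which says only that these letters are not in that window.

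Promoters of 22 of the 31 members tested are in the RefSeq table used here (GRCm38.p6), each as 300 bases around the start of transcription, and *Slc38a3* and *Slc38a1* are not among them. They were searched for TGATGNAA on both strands, the letters of the amino acid response element that ATF4 binds when amino acids run short. The motif was found in 4 of the 39 promoters of tested members (10.3%) and in 1304 of all 32851 promoters (3.97%). Of the 4, 2 are overlapping windows of *Slc7a7* that share a copy of the motif. By gene it was therefore 3 of 22 (13.6%), against 4.51% of the 27025 genes in the table. That background was not limited to tested genes. Over all members in the table, tested or not, the motif was in 4 of 61 promoters (6.56%) and 3 of 40 genes (7.5%). The genes were *Slc1a4*, *Slc7a11* and *Slc7a7*, of which the first 2 were called in opposite directions. Their promoters are shown because these 2 members share the motif and differ in direction, with the motif in capitals.
Slc7a11, chr3:50443564-50443863, minus strand: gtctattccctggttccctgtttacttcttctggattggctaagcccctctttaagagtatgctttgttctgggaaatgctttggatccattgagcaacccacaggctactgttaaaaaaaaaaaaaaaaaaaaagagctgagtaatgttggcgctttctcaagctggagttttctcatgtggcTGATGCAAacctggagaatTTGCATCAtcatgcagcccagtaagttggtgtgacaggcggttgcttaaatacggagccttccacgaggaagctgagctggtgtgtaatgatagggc
Slc1a4, chr11:20332664-20332963, minus strand: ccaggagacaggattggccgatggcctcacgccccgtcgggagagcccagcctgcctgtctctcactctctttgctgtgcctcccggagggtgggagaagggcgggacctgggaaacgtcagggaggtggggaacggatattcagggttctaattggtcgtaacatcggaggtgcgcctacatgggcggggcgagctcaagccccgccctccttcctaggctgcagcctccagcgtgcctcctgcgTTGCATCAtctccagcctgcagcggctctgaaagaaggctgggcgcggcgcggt
The motif begins 4 bases before the start of transcription in *Slc1a4*, and in *Slc7a11* there are 2 copies, the first of which begins 66 bases before the start. *Slc36a4*, also called higher, holds none in its promoter. *Slc7a7*, with the motif in both of these windows, had a log2 fold change of −0.01 (−0.67 to 0.64).

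Members that are neighbours on a chromosome had unlike values in several cases. On chromosome 15, *Slc38a1* and *Slc38a2* lie 44.5 kb apart with no listed gene between them and had log2 fold changes of −1.37 and 0.10, and *Slc38a4*, 295 kb further on, was at 0.11. On chromosome 2, *Slc43a1* and *Slc43a3* lie 73 kb apart and were at 0.69 and −0.48. On chromosome 6, *Slc6a13* and *Slc6a12* were at −0.14 and 0.35. No member called overlaps another listed gene that had counts.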

How the data were processed

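Poly(A)-selected liver RNA-seq was deposited as 1 table with 2 libraries, 1 per genotype, and libraries were assigned to genotypes by the library number in the labels. The authors deposited raw read counts per gene and the FPKM they computed from them. HISAT2 2.0.4, StringTie, edgeR and hg38 are named in the submitters' processing notes with no role. The gene identifiers are those of mouse, and 34267 of them are in GENCODE M21 (GRCm38), 80.8% with the same coordinates (46 of the 58 members). The coordinates printed are those of the deposited table.

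Counts were scaled by TMM in edgeR 4.0.16 (R 4.3.3), with a prior count of 0.5 for log2 fold changes. For every gene that reached 10 counts over both libraries, a binomial test (exact, two-sided) compared the KO count with its expected share, with Benjamini-Hochberg adjustment over all these genes, and the steps were tested on simulated data. Alternatives used DESeq2 1.42.0 size factors, other scalings, filters, prior counts, and edgeR's exact test with an assumed coefficient of variation. Sequences, sums and overlaps were computed in Python 3.11.15 with pandas 2.3.3. Named members are those with at least 100 counts over both libraries, those called, and those at 3 counts or fewer in 1 library and at least 10 in the other, and the context genes are those called. *Slc7a5*, *Slc7a8*, *Slc7a7*, *Slc3a1*, *Slc3a2*, *Mtor*, *Rptor*, *Lamtor1*, *Glul*, *Rhbg*, *Cyp2e1*, *Hsd17b13*, *Pck1*, *Spp1*, *Sox9*, *Hba-a1*, *Slc4a1* and the members near 0 or at the ends of a range were named after their values were seen. The members and lists were chosen with earlier results of these data known. Values of some genes are not reported here.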

Additional observations from a re-analysis of the deposited data

How the results depend on the processing

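The 3 members called higher and 2 called lower rest on single libraries, and the calls moved with the spread the test allows for. With an assumed coefficient of variation of 0.1 or of 0.2, 1 member was called lower, since the call of *Slc38a1* was lost. Of all genes, 7.37% were called lower with 0.1 and 3.27% with 0.2. With 0.4, 0 were called higher and 0 lower, beside 59 and 58 of all genes. With at least 50 counts 1 was called lower, beside 6.67% of all genes, since *Slc38a1* was not tested. By total counts without TMM 7 were called lower (*Slc1a4*, *Slc6a6*, *Slc7a5*, *Slc7a8*, *Slc38a1*, *Slc38a6* and *Slc43a3*), beside 25% of all genes, and by FPKM with a pseudocount of 0.1, with no test, 5 were, beside 21.6%.

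The median of 0.26 became −0.34 by total counts and −0.32 by FPKM. The summed counts by total counts gave −0.66 for Slc1a, −0.61 for Slc6a, −0.35 for Slc7a, −0.16 for Slc36a, 0.54 for Slc38a (−0.51 without *Slc38a3*) and −0.68 for Slc43a. Summed FPKM gave −0.80, −0.63, −0.52, −0.14, 0.10 and −0.79 for the same families. Without the 13 mitochondrial genes in the totals, Slc6a was at −0.10, Slc38a at 1.06 and Slc38a without *Slc38a3* at 0.01.

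Of the 23 named members, 11 changed sign by total counts and by FPKM: *Slc1a2* (−0.41 and −0.39), *Slc1a5* (−0.34 and −0.32), *Slc6a12* (−0.25 and −0.25), *Slc7a2* (−0.28 and −0.27), *Slc36a1* (−0.38 and −0.37), *Slc38a2* (−0.51 and −0.50), *Slc38a4* (−0.49 and −0.49), *Slc38a7* (−0.29 and −0.28), *Slc38a9* (−0.13 and −0.12), *Slc38a10* (−0.57 and −0.55, and −0.06 without the mitochondrial genes in the totals) and *Slc43a2* (−0.23 and −0.18). Under the upper quartile, DESeq2 size factors, a minimum of 1 count and a prior count of 5, all 23 kept their direction and their call. No paired analysis was possible because there was 1 library of each genotype.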
